A study of Mus musculus with 12 samples.

Results

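The mitochondrially encoded mRNAs and the nuclear genes of their expression machinery were followed in bulk RNA-seq of mouse kidney cortex. The set was fixed by gene name and holds 34 of the 55487 gene identifiers in the count table: the 13 mRNAs of the mitochondrial chromosome and 21 nuclear genes, of which 6 act in mitochondrial DNA maintenance, 4 in transcription, 6 in RNA stability and processing and 5 in translation. All 34 passed the filter on low counts in all 5 comparisons. The 12 libraries fall into 4 groups of 3. Ctrl mice carried the ALR flox/flox allele without Cre and are labelled WT, and PT-KO mice carried ALR flox/flox with Ggt1-Cre and are labelled ALR knockdown. ALR is the product of Gfer, a sulfhydryl oxidase of the mitochondrial intermembrane space, and Ggt1-Cre acts in the proximal tubule, so other cells of a PT-KO kidney keep the gene. Ctrl and PT-KO mice had a sham procedure. Ctrl+I/R and PT-KO+I/R mice had 22 min of ischemia in both kidneys followed by 24 h of reperfusion. All were on a mixed C57BL/6 background and 6 to 8 weeks old.

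Mitochondria keep a small circular chromosome of their own, present in many copies per cell. It is transcribed from both strands into long precursors, the tRNAs are cut out, and the mRNAs and rRNAs are released between them. The mRNAs encode core subunits of complexes I, III and IV and of ATP synthase. All proteins that copy, transcribe, process, stabilize and translate this genome are encoded in the nucleus and imported. The proximal tubule is one of the most mitochondria-rich epithelia of the body, since it drives its salt and solute transport by oxidative phosphorylation.

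Some of the libraries differed in ways that touch the results below. Totals ranged from 12165089 to 23123693 counts. Xist, which is transcribed in female cells, had 22402 and 19755 counts in Ctrl libraries 1 and 2 and at most 11 in each of the other 10 libraries, so the Ctrl group was mixed in sex and the other groups were male. No control title bears the number of Ctrl library 3, whose group was read from the name of its column. PT-KO+I/R library 2 stood apart on the minus strand of the mitochondrial chromosome, as described below. Gfer itself was not lower in the knockouts: it was at 11.4 to 14.4 CPM (counts scaled to 1000000 per library, with TMM factors) in Ctrl, 15.3 to 20.0 in Ctrl+I/R, 9.96 to 17.1 in PT-KO and 21.6 to 22.8 after I/R in PT-KO, a log2 difference of 0.13 (adjusted p = 0.761, edgeR) between PT-KO and Ctrl. The LoxP sites lie in the stretch from exon 1 to exon 3, and a count over the whole gene does not show which exons were read. Of the 12 proximal tubule markers, 12 were called lower in PT-KO+I/R than in PT-KO, with summed levels of 5386 to 6293 CPM versus 19476 to 21998 CPM. The 6 markers of the thick ascending limb and distal tubule were all called lower as well, and the 4 markers of tubular injury were all called higher. Of 6 collecting duct markers 5 were called lower, and of 4 podocyte markers 1, with none higher in either list. Of all tested genes, 32.7% were called lower and 32.9% higher in this comparison. In Ctrl+I/R the proximal tubule markers summed to 6472 to 13041 CPM versus 19857 to 21074 CPM in Ctrl. In tissue of this kind, fewer cells of a type and less RNA per cell cannot be told apart. The part of this shift in the differences below was not tested. The 3 markers of the inner medulla were found in these cortex samples. They summed to 122 to 144 CPM in Ctrl and 90.9 to 182 CPM in PT-KO. After I/R they summed to 213 to 322 CPM in Ctrl+I/R and 335 to 482 CPM in PT-KO+I/R. They moved in both directions in PT-KO+I/R versus PT-KO: Cryab was higher (2.01 ± 0.23), Akr1b3 lower (-0.84 ± 0.16) and Slc14a2 not called (-0.23 ± 0.44). None of the markers was at 0 in a whole group.

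The 13 mRNAs were counted at very different levels, and their sequences show where a read has more than 1 possible place. Annotation on GRCm38, the assembly named mm10 in the submitters' processing notes, places 7 unprocessed pseudogenes on the minus strand of chr1:24611535-24616197 that copy a stretch of the mitochondrial chromosome from base 6390 to base 11042. Over 4140 aligned bases, 5 of the 7 copies did not differ from their mitochondrial counterpart, and the other two each differed at 1 base. The opening bases of mt-Co2 (complex IV subunit II, chrM:7013-7102, plus strand) and of its copy Gm28661 (chr1:24615476-24615565, minus strand) are shown because they are alike over their whole length, so that a read from here has no base to place it by. The opening bases of mt-Nd3 (a complex I subunit, chrM:9459-9548) and Gm28438 (chr1:24613030-24613119) differ at the position in capitals, T3C counted from the first base of mt-Nd3. The stretch of mt-Co1 (complex IV subunit I) at chrM:6390-6449 and that of Gm29216 at chr1:24616129-24616188 differ at the capital, A1066T counted from the first base of mt-Co1. Sequences are those of the GENCODE M21 transcripts, written 5′ to 3′.
mt-Co2: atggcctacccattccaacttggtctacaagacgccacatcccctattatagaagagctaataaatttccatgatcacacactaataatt
Gm28661: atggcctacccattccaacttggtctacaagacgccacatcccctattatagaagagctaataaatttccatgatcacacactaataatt
mt-Nd3: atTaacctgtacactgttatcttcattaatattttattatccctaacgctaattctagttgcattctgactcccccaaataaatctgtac
Gm28438: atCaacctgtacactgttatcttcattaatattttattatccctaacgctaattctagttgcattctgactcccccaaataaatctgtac
mt-Co1: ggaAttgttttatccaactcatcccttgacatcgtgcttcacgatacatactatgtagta
Gm29216: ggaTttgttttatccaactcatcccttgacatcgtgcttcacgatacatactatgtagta

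Counted in windows of 100 bases, 97.6% of mt-Nd3, 98.5% of mt-Nd4l, 99.5% of mt-Co2, 99.5% of mt-Atp6 and 99.9% of mt-Co3 also occur in an annotated nuclear transcript. These are the 5 mRNAs whose copies span nearly all of them. Per kilobase of annotated gene, their mean levels over the 12 libraries lay between 17.4 CPM for mt-Nd3 and 188 CPM for mt-Co2. Of the 8 mRNAs with fewer or no shared windows, mt-Nd6 and mt-Atp8 are given apart, and the other 6 lay between 6119 CPM per kilobase for mt-Nd4, with 60.8% of windows shared, and 31780 CPM per kilobase for mt-Co1, with 30.8% shared. The lowest of these 6 was 32.5 times the highest of the 5. mt-Nd1, mt-Nd5 and mt-Cytb shared no window. mt-Nd6 shared none either and was at 521 CPM per kilobase. The copies themselves had 47 to 3262 counts in a library, of the same order as the 5 mRNAs copied nearly whole: mt-Co2 had 2.04 to 2.52 counts for each count of Gm28661, and mt-Co3 had 1.15 to 1.39 for each count of Gm28437. How reads with several places were treated is not given in the sources used here, so the levels of these 5 mRNAs are uncertain. mt-Atp8 was lower still, at 15.5 CPM per kilobase, although it shared no window with an annotated transcript. It lies between mt-Co2 and mt-Atp6 and overlaps the latter, no gene is annotated between the copies of these neighbours on chromosome 1, and the genome sequence there was not used here. Its part in that low level was not tested. mt-Nd4l and mt-Nd4 overlap as well, as do mt-Nd5 and mt-Nd6 on opposite strands, and reads in the overlap can be lost to either.

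**Figure D1:**
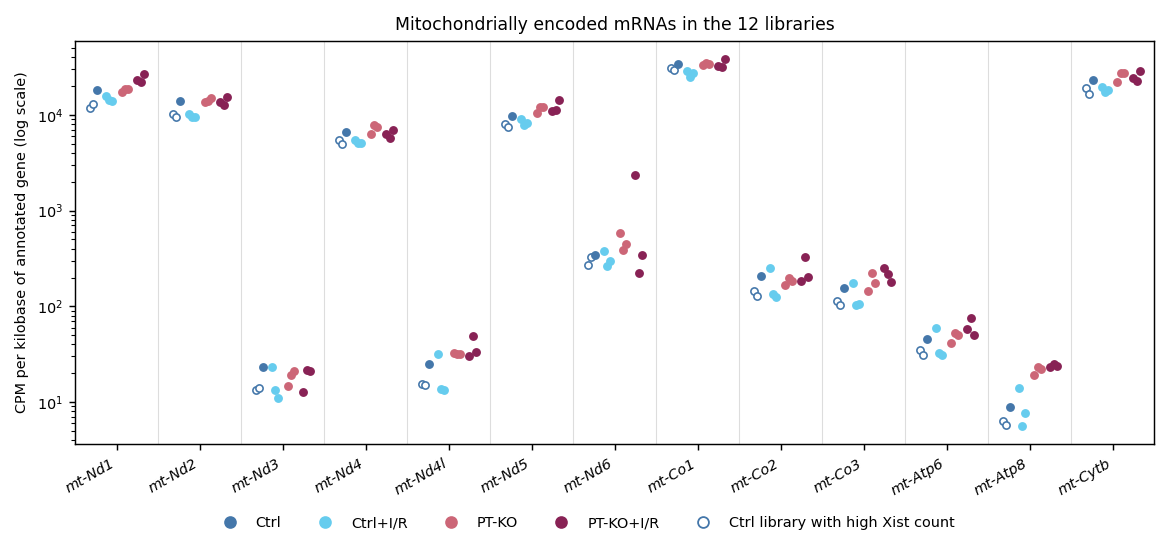
Level of each of the 13 mitochondrially encoded mRNAs in CPM per kilobase of annotated gene, on a log axis, with 1 point per library and colours by group; open points are the Ctrl libraries with high Xist counts. mt-Nd1, mt-Nd2, mt-Nd4, mt-Nd5, mt-Co1 and mt-Cytb sit at 5022 or above in every library, mt-Nd3, mt-Nd4l, mt-Co2, mt-Co3, mt-Atp6 and mt-Atp8 sit at 327 or below, and mt-Nd6 has 1 library far above the rest.

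The 6 well-counted mRNAs carried nearly all of the mitochondrial signal. The 13 mRNAs together took 12.2% ± 0.925 of counts in Ctrl (SD, n = 3), 12.1% ± 0.613 in Ctrl+I/R, 13.6% ± 0.540 in PT-KO and 14.4% ± 1.27 after I/R in PT-KO. These shares overlap between some groups and are a description with no test. Within the 6 mRNAs the makeup also moved: mt-Nd1 was 9.90% to 12.6% of their counts in Ctrl, 12.2% to 13.2% in Ctrl+I/R, 11.9% to 12.3% in PT-KO and 15.0% to 15.5% after I/R in PT-KO, where the range lay above that of each other group. mt-Nd4 had its lowest shares in PT-KO+I/R, at 5.71% to 6.04%, versus 6.39% to 7.15% in the other libraries.

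The question of what I/R did to these mRNAs in mice with ALR was addressed by Ctrl+I/R versus Ctrl. No mitochondrial mRNA of the 13 was called (a Benjamini-Hochberg adjusted p below 0.05) with the quasi-likelihood test of edgeR, where 19.4% of the 15567 genes tested were called, and 0 had an unadjusted p under 0.05, versus 37.9% of all genes tested. DESeq2 also called 0. Their log2 differences ran from -0.22 for mt-Co1 to 0.40 for mt-Atp8, with a median of 0.01. mt-Co1, the mRNA of the catalytic subunit of complex IV, was at 47827, 45958 and 53144 CPM in the Ctrl libraries and at 44243, 38441 and 42486 CPM in the Ctrl+I/R libraries. It was the only mRNA of the 13 whose groups did not overlap here, where 43.7% of all tested genes did not overlap. Its difference of -0.22 ± 0.35 (SE) had an adjusted p of 0.672 in edgeR. Sex was mixed into this comparison, since Ctrl libraries 1 and 2 were female and the Ctrl+I/R libraries male. For each of the 6 well-counted mRNAs, every Ctrl+I/R library lay below Ctrl library 3, the male one. mt-Nd1 was at 13256 to 15036 CPM in Ctrl+I/R, versus 17527 CPM in that library and 11266 and 12343 CPM in the female ones. I/R and sex cannot be told apart in the differences from the female libraries.

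Without injury, PT-KO kidneys were compared with Ctrl kidneys. All 13 mitochondrial mRNAs had a positive log2 difference, except that mt-Co1, at 0.11, turned to -0.013 when scaled by library totals and to -0.011 with sex as a covariate. They had a median of 0.36 versus -0.01 over all genes tested, and none was called by edgeR, where 0% of 15291 genes were called. An unadjusted p under 0.05 was found for 8 of the 13 and for 16.8% of all tested genes, and DESeq2 called 4 (mt-Atp8, mt-Nd5, mt-Nd6 and mt-Nd4l), all higher, and 191 genes higher and 267 lower of all tested. mt-Nd5, a complex I subunit, was at 14561, 13604 and 17862 CPM in Ctrl and at 19181, 22077 and 22006 CPM in PT-KO, a difference of 0.46 ± 0.14 (SE, edgeR adjusted p = 0.212). After I/R it was at 16420, 14162 and 14883 CPM in Ctrl+I/R and at 19837, 20675 and 25895 CPM in the knockout. mt-Atp8, a small subunit of ATP synthase, was at 1.31, 1.16 and 1.83 CPM in Ctrl and at 3.91, 4.79 and 4.53 CPM in PT-KO, a difference of 1.62 ± 0.25 (adjusted p = 0.153) that rests on 19 to 89 counts per library. mt-Nd4l was at 4.62, 4.52 and 7.47 CPM versus 9.77, 9.47 and 9.50 CPM. Its difference was 0.79 ± 0.21 (adjusted p = 0.203). After I/R it was at 9.41, 4.02 and 3.98 CPM in Ctrl+I/R and at 9.06, 14.6 and 9.79 CPM in the knockout. mt-Co3 was at 88.2, 81.0 and 122 CPM versus 114, 173 and 137 CPM, with overlapping groups and a difference of 0.54 ± 0.19 (adjusted p = 0.245). The groups of 4 of the 13 did not overlap, all higher in PT-KO, where 9.76% of tested genes were non-overlapping and higher.

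The order of the Ctrl libraries bears on this comparison. For each of the 6 well-counted mRNAs, Ctrl library 3, the male library, was above Ctrl libraries 1 and 2, the female ones. mt-Nd1, a complex I subunit, was at 11266 and 12343 CPM in the female libraries and at 17527 CPM in the male one, within the 16719 to 17976 CPM of the PT-KO libraries, which were all male. mt-Nd2, of the same complex, was at 10549 and 9864 CPM versus 14390 CPM, with 14309 to 15444 CPM in PT-KO. Without Ctrl library 3, when PT-KO was set against the female libraries alone, 11 of the 13 mRNAs were called higher, as were 1091 of the 15597 genes tested in that fit. Leaving out either female library called 0. A fit to all 12 libraries with sex as a covariate also called 0, but there the female libraries serve only to estimate sex and the Ctrl level rests on Ctrl library 3 alone, so this count says nothing of stability. Knockout and sex cannot be told apart in those 11 calls, since the Ctrl libraries left were female and the PT-KO libraries male.

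**Figure D2:**
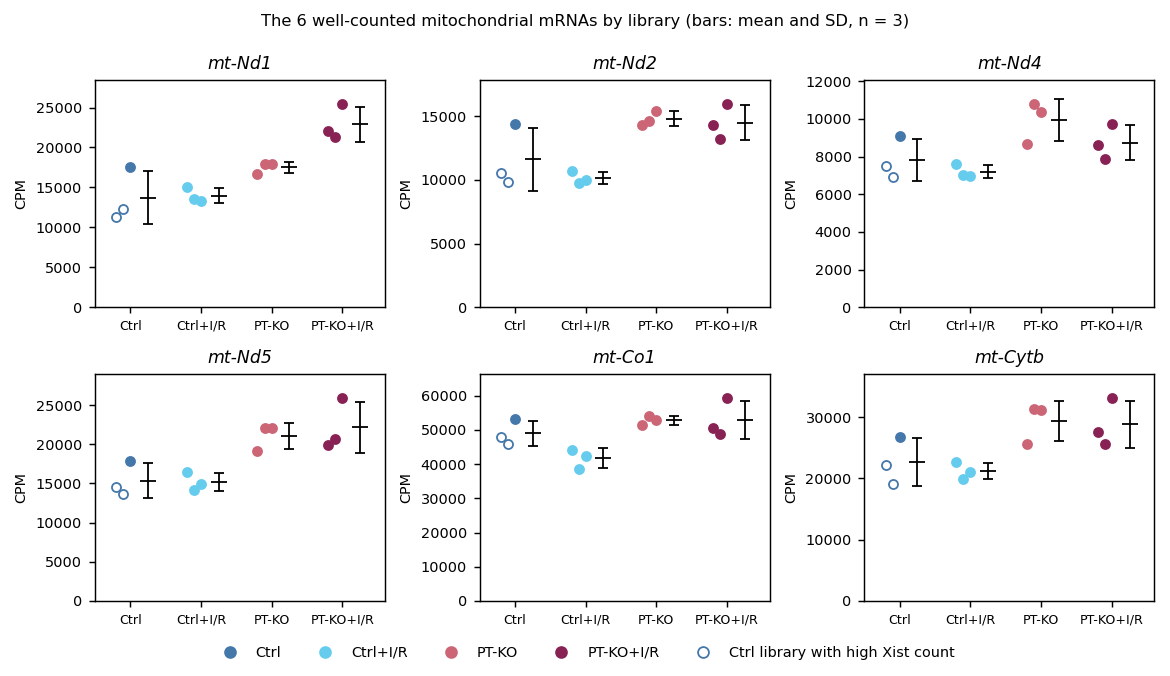
Levels in CPM of the 6 well-counted mitochondrial mRNAs in each library by group, with the group mean and SD (n = 3) beside the points; open points are the Ctrl libraries with high Xist counts. For mt-Nd1 the Ctrl points at 11266 and 12343 CPM are the open ones, the filled Ctrl point at 17527 CPM sits among the PT-KO points, and the PT-KO+I/R points sit highest, at 21288 to 25396 CPM.

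After I/R, all libraries compared were male, and PT-KO+I/R kidneys were set against Ctrl+I/R kidneys. All 13 mitochondrial mRNAs again had a positive difference, that of mt-Nd6 only with PT-KO+I/R library 2 (-0.15 without it). The median was 0.54 versus -0.00 over all genes, and 4 of the 13 were called higher, where 22.6% of the 15281 genes tested were called higher and 24.4% lower. mt-Nd1 was at 15036, 13581 and 13256 CPM in Ctrl+I/R and at 22040, 21288 and 25396 CPM in PT-KO+I/R. Every PT-KO+I/R library lay above every Ctrl+I/R library, and the difference was 0.71 ± 0.18 (SE, adjusted p = 0.0151). mt-Nd2 was at 10695, 9780 and 10005 CPM versus 14325, 13241 and 15928 CPM, a difference of 0.51 ± 0.17 (adjusted p = 0.0416). The other mRNAs called were not among the 6 well-counted ones. mt-Atp8 rested on 22 to 114 counts per library here, and mt-Co3 is 1 of the 5 copied nearly whole on chromosome 1. mt-Atp8 was at 2.85, 1.15 and 1.58 CPM versus 4.79, 5.07 and 4.89 CPM, a difference of 1.38 ± 0.34 (adjusted p = 0.0128), and mt-Co3 was at 137, 81.7 and 82.4 CPM versus 196, 172 and 141 CPM, a difference of 0.75 ± 0.23 (adjusted p = 0.0271). mt-Nd4, mt-Nd5, mt-Co1 and mt-Cytb were not called although their groups did not overlap, with differences of 0.27, 0.54, 0.34 and 0.44. DESeq2 called 8 of the 13, among them mt-Nd5, mt-Co1 and mt-Cytb, and 3452 of the 15281 genes as higher. In all, 8 of the 13 did not overlap, all of them higher in PT-KO+I/R, where 29.5% of tested genes were non-overlapping and higher. Single libraries moved the count from 2 (without PT-KO+I/R library 2, without PT-KO+I/R library 4 or without Ctrl+I/R library 4) to 6 (without Ctrl+I/R library 1). The call of mt-Nd1 was lost without PT-KO+I/R library 4, and that of mt-Co3 without any 1 of 4 of the libraries. Scaling by library totals also left 2, mt-Nd1 and mt-Atp8. The proximal tubule markers, of which 6 of 12 were called lower and none higher in this comparison, moved the other way from the mRNAs. Their part in the result was not tested.

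Within the knockout, PT-KO+I/R versus PT-KO called 1 of the 13 mRNAs, mt-Nd1, where 32.9% of 15155 genes were called higher and 32.7% lower. mt-Nd1 was at 16719, 17883 and 17976 CPM before and at 22040, 21288 and 25396 CPM after injury, a difference of 0.38 ± 0.11 (SE, adjusted p = 0.0121). One fit to all 12 libraries did not call it. mt-Co1 was at 51505, 53943 and 52816 CPM before and at 50584, 48926 and 59322 CPM after injury, a difference of -0.00 ± 0.12 (adjusted p = 0.993). The median of the 13 differences was 0.15. Only mt-Nd1 had groups that did not overlap, where 35.9% of tested genes were non-overlapping and higher. Without PT-KO+I/R library 2 the count was 3 (mt-Nd1 and mt-Co2 higher, mt-Nd6 lower), and without PT-KO library 2 or PT-KO+I/R library 4 it was 2. The knockout by I/R interaction, which tests whether the I/R difference in PT-KO departs from that in Ctrl, called 0 of the 13 in edgeR and in DESeq2, where edgeR called 30.6% of the 16168 genes tested, and 0 had an unadjusted p under 0.05.

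mt-Nd6, a complex I subunit, is the one mRNA encoded on the strand opposite to the other 12, and 1 library set its value. Its counts were 2451 to 4839 in 11 libraries and 14429 in PT-KO+I/R library 2. In CPM it was at 140, 171 and 177 in the Ctrl libraries, at 305, 203 and 232 in the PT-KO libraries and at 1233, 115 and 178 after injury. With all libraries its difference was 1.03 ± 0.70 (SE, adjusted p = 0.222, edgeR). Without PT-KO+I/R library 2 it turned to -0.75 (adjusted p = 0.00934), so its direction after injury rests on that library. Against Ctrl+I/R, at 196, 138 and 155 CPM, the difference was 1.63 ± 0.79 (adjusted p = 0.123) with the library and -0.15 (adjusted p = 0.631) without it. In the same library 6 of the 8 other genes of the minus strand were above every other library. The tRNA genes mt-Te (next to mt-Nd6) and mt-Tp had 552 and 718 counts there and at most 8 and 42 elsewhere, mt-Ty had 59 versus at most 4, mt-Ta 25 versus at most 6, mt-Ts1 22 versus at most 2, and mt-Tc 12 versus 0. mt-Tq, at 14 counts, lay within the 2 to 49 of the other libraries, and mt-Tn was at 0 in all 12. All genes of the minus strand together had 92.4 counts for every 10000 on plus-strand genes in this library and 8.30 to 22.5 in the other 11. Among the nuclear genes, those annotated as antisense took 0.222% of counts in this library and 0.0891% to 0.171% in the others. The strandedness of the libraries is not given in the sources used here. Its part in these counts was not tested.

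**Figure D3:**
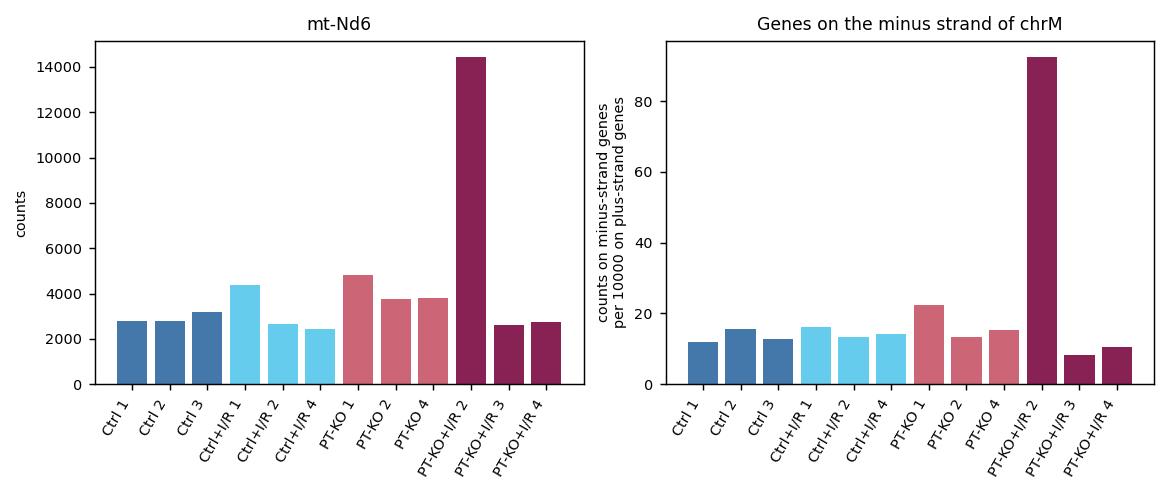
Counts of mt-Nd6 (left) and counts on the 9 minus-strand mitochondrial genes per 10000 counts on the 28 plus-strand genes (right) in each of the 12 libraries, coloured by group. PT-KO+I/R library 2 stands at 14429 counts and at 92.4 per 10000, and no other library passes 4839 counts or 22.5 per 10000.

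Outside the mRNAs, the tRNA gene mt-Tt, on the plus strand next to mt-Cytb, had 392, 505 and 558 counts in the PT-KO+I/R libraries and 61 to 134 in the other 9. The rRNAs of the mitochondrial ribosome, mt-Rnr1 and mt-Rnr2, were not called in any comparison. Both had their highest level in Ctrl+I/R library 1, at 1365 and 2325 CPM.

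Among the genes of the nuclear-encoded machinery the calls were mostly lower ones. In PT-KO+I/R versus PT-KO, 16 of the 21 genes were called, 14 lower and 2 higher, at a median log2 difference of -0.48 versus 0.01 over all genes tested. In this comparison 65.5% of all tested genes were called. The groups of 18 of the 21 did not overlap, where 70.8% of all tested genes did not. In Ctrl+I/R versus Ctrl 1 of 21 was called, where 19.4% of all tested genes were. PT-KO versus Ctrl called 0, where 0% of all tested genes were called. There 5 had an unadjusted p under 0.05, as did 16.8% of all tested genes. DESeq2 called 0 of the 21 there and 458 of all 15291 genes. In PT-KO+I/R versus Ctrl+I/R 10 were called, of which 8 were lower and 2 higher, where 46.9% of all tested genes were called. Of the last, 9 genes were non-overlapping and lower, where 29.1% of tested genes were. Without PT-KO+I/R library 2 PT-KO+I/R versus Ctrl+I/R called 9 and PT-KO+I/R versus PT-KO 15. Without PT-KO+I/R library 4 the former called 5.

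**Figure D4:**
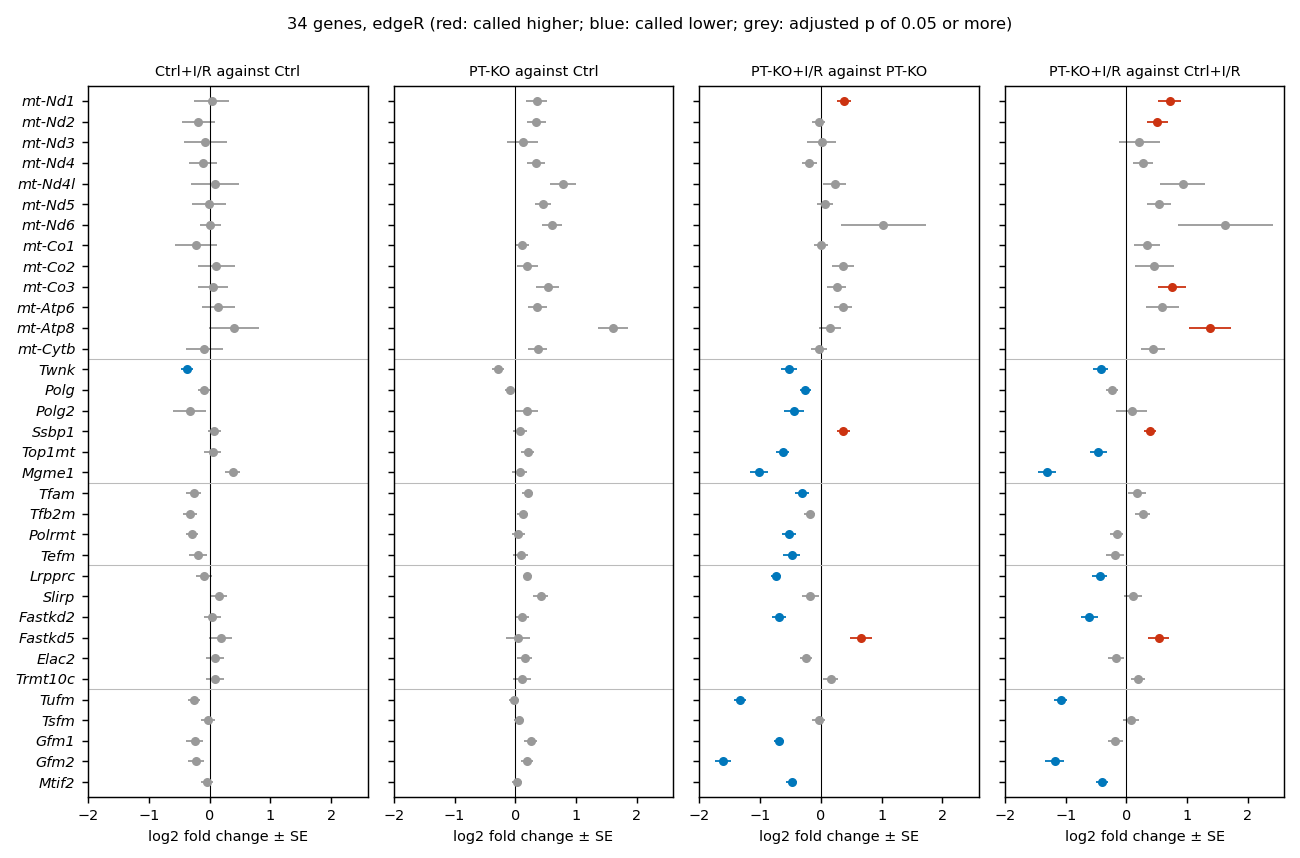
Log2 fold change with its standard error from edgeR for the 34 genes in 4 comparisons, ordered by role from the mitochondrial mRNAs at the top to the translation factors at the bottom, with called genes in red (higher) or blue (lower). In PT-KO+I/R versus PT-KO, 14 nuclear genes are blue and mt-Nd1, Ssbp1 and Fastkd5 are red; in PT-KO versus Ctrl no gene is coloured.

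In mitochondrial translation, the fall reached 4 of 5 factors in PT-KO+I/R versus PT-KO, where 32.7% of all tested genes were called lower. Tufm, which encodes the elongation factor that brings aminoacyl-tRNA to the mitochondrial ribosome (chr7:126487361-126490731), was at 55.6, 59.2 and 58.2 CPM in Ctrl, 43.7, 49.5 and 50.5 for Ctrl+I/R, 52.6, 62.2 and 56.3 in PT-KO, and 23.2, 20.7 and 24.3 in PT-KO+I/R. The PT-KO+I/R libraries lay below every other library. The difference was -1.34 ± 0.10 (SE, adjusted p = 2.41e-06) from PT-KO and -1.08 ± 0.11 (adjusted p = 3.94e-04) from Ctrl+I/R. Gfm2, which encodes the factor that recycles mitochondrial ribosomes after termination (chr13:97137937-97181195), was at 65.3, 68.4 and 79.0 CPM in Ctrl, 55.6, 56.3 and 69.5 for Ctrl+I/R, 74.9, 89.3 and 78.7 in PT-KO, and 32.0, 26.3 and 22.2 in PT-KO+I/R. Its difference from PT-KO, at -1.61 ± 0.13 (adjusted p = 3.24e-06), was the largest fall among the 34 genes, and that from Ctrl+I/R was -1.18 ± 0.16 (adjusted p = 0.00100).

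Gfm1 encodes the translocase that moves the mitochondrial ribosome along the mRNA (chr3:67430096-67476529). It was at 127, 128 and 158 CPM in Ctrl, 117, 102 and 129 for Ctrl+I/R, 155, 174 and 165 in PT-KO, and 106, 94.2 and 107 in PT-KO+I/R. It fell from PT-KO by 0.69 ± 0.09 on the log2 scale (adjusted p = 7.74e-05), but the groups overlapped versus Ctrl+I/R (-0.18 ± 0.12, adjusted p = 0.245). Mtif2, for the initiation factor that places the initiator tRNA, fell by 0.48 from PT-KO and by 0.40 from Ctrl+I/R. Its call versus Ctrl+I/R was lost without PT-KO+I/R library 4. Tsfm, for the exchange factor that reloads the Tufm product, stayed at 24.2 to 29.9 CPM in PT-KO+I/R versus 28.0 to 28.2 CPM in PT-KO, with a difference of -0.03 ± 0.11 (adjusted p = 0.794).

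In mitochondrial DNA maintenance all 6 genes were called in PT-KO+I/R versus PT-KO, 5 lower and 1 higher, beside 32.7% and 32.9% of all tested genes. Mgme1, for the nuclease that trims displaced DNA ends during replication (chr2:144270663-144281227), was at 12.9, 12.2 and 10.4 CPM in Ctrl, 14.4, 15.3 and 16.0 for Ctrl+I/R, 12.5, 12.2 and 12.6 in PT-KO, and 5.81, 7.02 and 5.60 in PT-KO+I/R. After I/R its levels thus sat above the sham range in mice with ALR and below it in knockouts. The difference was 0.38 ± 0.13 (adjusted p = 0.0778) in Ctrl+I/R versus Ctrl, which did not pass, -1.01 ± 0.15 (adjusted p = 2.14e-04) in PT-KO+I/R versus PT-KO and -1.31 ± 0.15 (adjusted p = 6.17e-04) between the injured groups. Twnk, for the helicase that opens mitochondrial DNA for the polymerase (chr19:45005663-45012762), was at 32.1, 37.4 and 33.1 CPM in Ctrl, 26.6, 26.9 and 25.6 for Ctrl+I/R, 26.4, 29.7 and 28.2 in PT-KO, and 23.2, 18.5 and 17.5 in PT-KO+I/R.

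Twnk was the gene called in Ctrl+I/R versus Ctrl, at -0.37 ± 0.10 (adjusted p = 0.0410), where 7.97% of tested genes were called lower. It lost that call when any of the 6 libraries was left out (adjusted p from 0.0613 to 0.153). Over all genes, those fits called 379 to 4061, versus 3019 with all 6 libraries. Twnk was lower in further comparisons. It was also lower in PT-KO+I/R than in PT-KO, at -0.52 ± 0.13 (adjusted p = 0.00419), and than in Ctrl+I/R, at -0.43 ± 0.13 (adjusted p = 0.0284). The latter call was lost without Ctrl+I/R library 1, PT-KO+I/R library 3 or PT-KO+I/R library 4.

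Both polymerase genes were called lower. Polg, for the catalytic subunit of the mitochondrial DNA polymerase, fell by 0.26 from PT-KO to PT-KO+I/R (adjusted p = 0.0283). Polg2, for its accessory subunit (chr11:106768253-106779537), was at 6.68, 9.04 and 6.09 CPM in Ctrl, 7.72, 4.69 and 4.74 for Ctrl+I/R, 8.13, 8.55 and 8.21 in PT-KO, and 5.30, 6.80 and 6.18 in PT-KO+I/R. It fell by 0.44 ± 0.16 from PT-KO (adjusted p = 0.0363), with 62 to 159 counts per library behind it, and lost the call in 5 of the 6 fits that leave out a library and in DESeq2. The Polg call was likewise lost in 5 of the 6 and with library totals, and that of Polg2 with library totals too. Top1mt, for the mitochondrial topoisomerase, fell by 0.63 from PT-KO and by 0.47 from Ctrl+I/R, the latter call being lost in 4 of the 6 fits that leave out a library. Ssbp1, for the protein that coats single-stranded mitochondrial DNA, rose: it was at 28.7, 34 and 34.4 CPM in the PT-KO libraries, then 44.6, 39.7 and 42.3 in PT-KO+I/R, a difference of 0.37 ± 0.10 (adjusted p = 0.00842), and it was 0.39 ± 0.10 above Ctrl+I/R (adjusted p = 0.0134). The call versus Ctrl+I/R was lost when scaled by library totals.

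In mitochondrial transcription 3 of 4 genes fell in PT-KO+I/R versus PT-KO, beside 32.7% of all tested genes. None was called in Ctrl+I/R versus Ctrl (19.4% of all genes), PT-KO versus Ctrl (0%), PT-KO+I/R versus Ctrl+I/R (46.9%) or the interaction (30.6%). Polrmt, for the mitochondrial RNA polymerase, was at 33.1, 36.5 and 28.1 CPM in the PT-KO libraries, then 24.9, 21.6 and 22.0 in PT-KO+I/R, a fall by 0.52 ± 0.12 (adjusted p = 0.00339). Tefm, for its elongation factor, fell by 0.48 (adjusted p = 0.0107). Tfam, which packages mitochondrial DNA and opens its promoters, fell by 0.31 (adjusted p = 0.0363), from 61.1, 68.9 and 65.0 CPM to 60.5, 44.5 and 54.0 CPM, with non-overlapping groups. It lost the call in 4 of the 6 fits that leave out a library and with library totals. Tfb2m, for the factor that melts the promoter, was at -0.19 (adjusted p = 0.114). In Ctrl+I/R versus Ctrl, all 4 were at negative differences of -0.32 to -0.19, and 3 of them did not overlap, where 22.3% of tested genes were non-overlapping and lower, but the smallest adjusted p was 0.0737.

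In RNA stability and processing, 2 of 6 genes fell and 1 rose in PT-KO+I/R versus PT-KO, a share of falls near the 32.7% of all tested genes. Lrpprc, for the protein that holds mitochondrial mRNAs in a stable and translatable form (chr17:84705247-84790789), was at 150, 152 and 166 CPM in Ctrl, 134, 133 and 168 for Ctrl+I/R, 178, 184 and 175 in PT-KO, and 114, 101 and 107 in PT-KO+I/R. It fell by 0.74 ± 0.08 from PT-KO (adjusted p = 2.82e-05) and by 0.44 ± 0.12 from Ctrl+I/R (adjusted p = 0.0207). The latter call was lost without PT-KO+I/R library 3 or 4. Slirp, for its binding partner, was at -0.17 (adjusted p = 0.281) with overlapping groups.

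Fastkd2, for an RNA-binding protein of mitochondrial RNA granules (chr1:63730614-63754655), was at 32.7, 36.7 and 36.0 CPM in Ctrl, 34.4, 31.6 and 42.4 for Ctrl+I/R, 34, 43.3 and 36.7 in PT-KO, and 26.6, 22.2 and 22.6 in PT-KO+I/R. It fell by 0.69 ± 0.12 from PT-KO (adjusted p = 6.06e-04) and by 0.61 ± 0.14 from Ctrl+I/R (adjusted p = 0.0105). Fastkd5, of the same family and needed to process precursors not bounded by tRNAs, rose by 0.66 ± 0.18 (adjusted p = 0.00941) from 5.17, 4.89 and 6.07 CPM to 9.91, 7.51 and 8.24 CPM. Its call versus Ctrl+I/R, at 0.53 ± 0.17 (adjusted p = 0.0380), was lost in 5 of the 6 fits that leave out a library. Elac2 and Trmt10c, for the enzymes that cut tRNA ends, were at -0.25 (adjusted p = 0.0632) and 0.16 (adjusted p = 0.267).

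**Figure D5:**
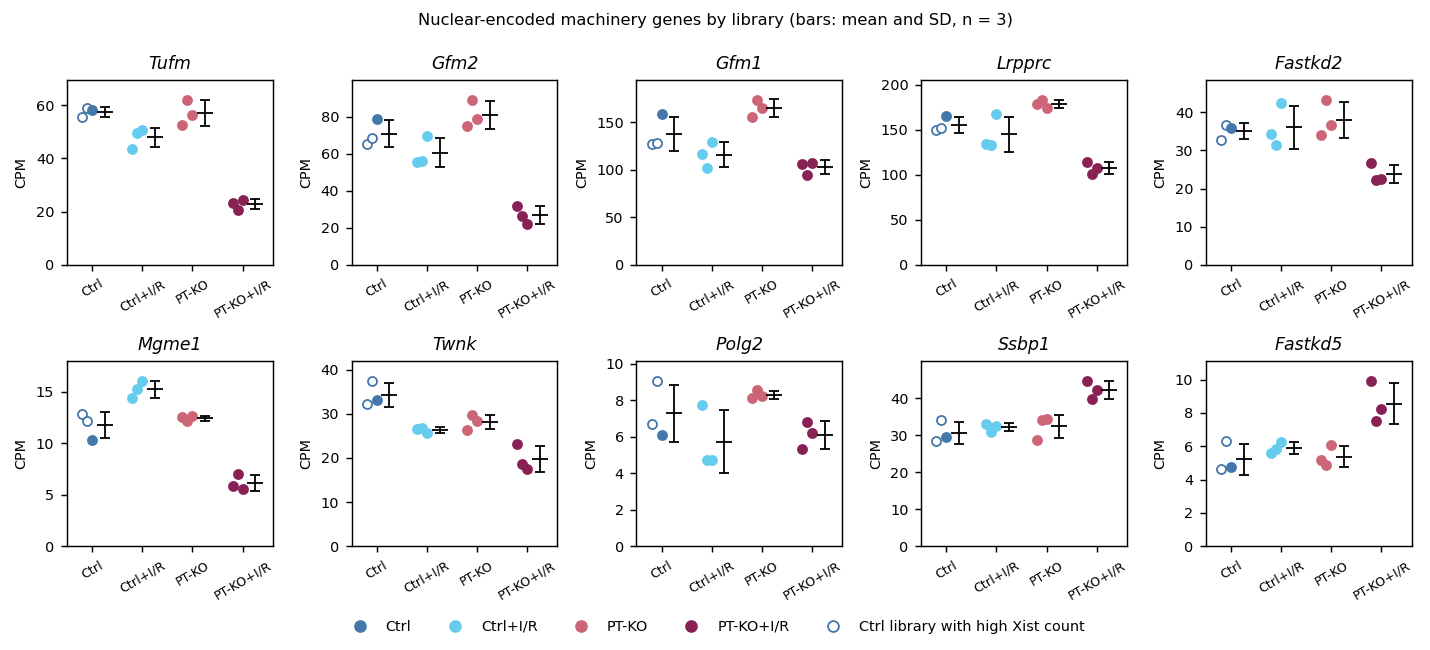
Levels in CPM of 10 nuclear-encoded machinery genes in each library by group, with the group mean and SD (n = 3) beside the points; open points are the Ctrl libraries with high Xist counts. For Tufm, Gfm2, Lrpprc, Fastkd2, Mgme1 and Twnk every PT-KO+I/R point lies below every point of the other groups, and for Ssbp1 and Fastkd5 every PT-KO+I/R point lies above them.

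The knockout by I/R interaction set these falls against those of mice with ALR. It called 7 of the 21 machinery genes, all with a more negative I/R difference in PT-KO, where 16.4% of the 16168 genes tested were called in that direction. They were Mgme1 (-1.38 ± 0.18, SE, adjusted p = 3.17e-04), Gfm2 (-1.37 ± 0.20, adjusted p = 5.19e-04), Tufm (-1.06 ± 0.13, adjusted p = 2.51e-04), Fastkd2, Top1mt, Lrpprc and Mtif2. DESeq2 called the same 7. With sex as a covariate, where the Ctrl level again rests on Ctrl library 3 alone, 3 were called, Mgme1, Gfm2 and Tufm. The genes that fell within the knockout without a call in the interaction, such as Twnk (-0.14 ± 0.16), Tfam (-0.03 ± 0.17) and Polrmt (-0.21 ± 0.15) were not shown to respond differently in the 2 genotypes, which does not show that they respond alike. Comparisons that share a group of libraries are not independent of each other.

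Other genes of the same pathways were counted from lists of 77 genes outside the 34, of which 75 were tested. In Ctrl+I/R versus Ctrl 3 were called higher and 4 lower. The counts in PT-KO+I/R versus PT-KO were 11 higher and 33 lower (median -0.26). In PT-KO versus Ctrl edgeR called 0, and in PT-KO+I/R versus Ctrl+I/R 10 were higher and 22 lower. Of all genes tested, 19.4%, 65.5%, 0% and 46.9% were called in these comparisons in turn. For the lists that follow, 32.7% of all tested genes were called lower and 32.9% higher. Among 9 further genes of translation and membrane insertion, 7 fell in PT-KO+I/R versus PT-KO and none rose. Among 12 further genes of DNA maintenance 6 fell, among them Rrm2b (-1.62 ± 0.10, adjusted p = 6.13e-07), a ribonucleotide reductase subunit that supplies nucleotides outside of S phase, and 2 rose. Among 35 further genes of RNA processing and modification 14 fell, among them Ptcd3 (-1.24 ± 0.09), and 5 rose, among them Ddx28 (1.21 ± 0.14). Tfb1m, for the methyltransferase of the small rRNA, was among the 3 of 7 further transcription genes that fell (-1.26 ± 0.25).

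Among the 10 regulators of mitochondrial biogenesis the directions were mixed. After I/R in PT-KO, 4 were called higher and 3 lower, where 32.9% and 32.7% of all tested genes were. In PT-KO+I/R versus PT-KO, Ppargc1a, for the coactivator PGC-1α, fell by 1.58 ± 0.10 on the log2 scale and Esrra, for the nuclear receptor ERRα it works with, by 1.93 ± 0.11. Pprc1, for a related coactivator, rose by 1.5 ± 0.17, and Myc rose by 3.99 ± 0.31. Nrf1 rose by 0.36 ± 0.11 and Gabpb1 by 0.98 ± 0.15. In mice with ALR, Ppargc1a fell by 1.02 ± 0.24 (adjusted p = 0.0284) and Pprc1 rose by 1.23 ± 0.17 (adjusted p = 0.00887) after I/R, as did Myc by 2.80 ± 0.63 (adjusted p = 0.0267), and the difference of -0.68 ± 0.23 in Esrra did not pass (adjusted p = 0.0734).

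Since 14 of the machinery genes fell together, their promoters were searched for the motifs of factors known for such genes, in RefSeq windows of 250 bases before to 50 bases after each start site on GRCm38.p6. A promoter entry was found for 20 of the 21 genes (Top1mt had none). The letters CCGGAAG, the core bound by ETS factors such as GABPA, were found on either strand in 13 of the 20 genes, or 65%, versus 8.86% of all 32851 promoters and 16.1% of promoters of tested genes. They were in 9 of the 13 genes with an entry that fell in PT-KO+I/R versus PT-KO and in 4 of the 7 that did not fall, so the motif was common to both. The palindromic core of the NRF1 motif was in 2 genes, or 10%, versus 4.60% of all promoters and 8.96% of those of tested genes. CCATNTT, the core of YY1, was in 3, or 15%, versus 14.5% of promoters of tested genes, and GGGCGG, the SP1 box, in 11, or 55%, versus 59.6% of promoters of tested genes. A match of letters is not a bound site, and no match says nothing of the factor. The windows of 3 promoters are shown around the ETS letters, which are in capitals, with the factor's core reading CTTCCGG where it lies on the opposite strand: that of Tufm because it fell most among genes with the motif, and those of Tfam and Polrmt because their products start transcription of the mitochondrial chromosome.
Tufm (chr7:126487342-126487371, plus strand): cctcatttccgCCGGAAGtgatctgcagtc
Tfam (chr10:71238073-71238102, minus strand): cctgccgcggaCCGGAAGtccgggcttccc
Polrmt (chr10:79746606-79746635, minus strand): ccctaagagcgCTTCCGGcagtcgcagaac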

How the data were processed

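RNA of kidney cortex was extracted, checked for integrity and sequenced on an Illumina instrument by the authors. The authors deposited 1 table of read counts per gene for 12 libraries, and the whole-number counts in it were neither normalized nor filtered. The submitters' processing notes name HISAT2 2.0.4 and mm10, while the count program, the annotation, the strandedness and the treatment of reads with several places are not given in the sources used here. Column names were matched to sample titles, except that of Ctrl library 3, which gives its group only, and 0 columns belonged to other series.

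Genes were filtered with filterByExpr (minimum count 10), scaled by TMM and fitted in edgeR 4.0.16 (R 4.3.3). Each comparison used its own 6 libraries and a quasi-likelihood F test, and the interaction used all 12. P-values were adjusted over all genes tested by Benjamini-Hochberg, and genes below 0.05 were called. For a single gene, an exact permutation test of 3 versus 3 cannot go below p = 0.1 and was not used for calls. CPM values use TMM factors over all 12 libraries. Nothing in the labels says how the 3 libraries of a group were taken beyond being separate samples, so p-values measure the spread between these samples. Totals were 12165089 to 23123693 counts, and intervals given as SE include counting error.

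The 34 genes, the gene lists and the promoter motifs were chosen with earlier results of these data known. Given in full were the mitochondrial mRNAs with the highest and the lowest mean count, mt-Nd6, and, of the other members in each comparison, up to 4 called genes with the smallest adjusted p and up to 3 with the largest absolute log2 difference, plus any called in opposite directions in 2 comparisons, of which there were none. Others were named by role. Alternatives were DESeq2 1.42.0, library totals, TMM on nuclear genes only, no low-count filter, 1 fit to all 12 libraries, the replicate block, sex as a covariate and leaving out each library; adding the counts of the chromosome 1 copies to their mitochondrial counterparts was chosen after seeing the data. Same-numbered libraries had residual correlations of -0.215 to 0.235, so the numbers were not used as pairs. A library with over 1000 counts of Xist was taken as female. The methods were tested on simulated data with 200 changed genes. Annotation and transcripts were GENCODE M21 and promoters were RefSeq, both on GRCm38.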

Additional observations from a re-analysis of the deposited data

Results flagged for a closer look

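For 7 machinery genes the I/R difference was itself different between the genotypes by the interaction test of edgeR on all 12 libraries. Of the 16168 genes tested, 16.4% were called with a more negative difference in PT-KO and 14.3% with a more positive one. An unadjusted p under 0.05 was found for 42.2%. The I/R difference in PT-KO minus that in Ctrl was, on the log2 scale, -1.38 for Mgme1, -1.37 for Gfm2, -1.06 for Tufm, -0.72 for Fastkd2 (adjusted p = 0.0118), -0.66 for Top1mt (adjusted p = 0.0108), -0.63 for Lrpprc (adjusted p = 0.00745) and -0.42 for Mtif2 (adjusted p = 0.0142). Without PT-KO+I/R library 2 the test again called these 7 genes. With sex as a covariate, a fit in which the Ctrl level rests on Ctrl library 3 alone, Top1mt, Lrpprc, Fastkd2 and Mtif2 were not called. No mitochondrially encoded mRNA was called by this test in edgeR or DESeq2 (0 at an unadjusted p under 0.05); with sex as a covariate 1, mt-Nd1, was, again with Ctrl library 3 alone as the Ctrl level. Groups of 3 libraries are too small for a test of single libraries that stand apart.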

How the results depend on the processing

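Scaling by library totals moved the median log2 difference of all genes to 0.11 in Ctrl+I/R versus Ctrl, -0.13 in PT-KO versus Ctrl, -0.21 in PT-KO+I/R versus Ctrl+I/R and -0.11 in the interaction; in PT-KO+I/R versus Ctrl+I/R the split over all genes went from 3447 higher and 3727 lower to 1975 and 5080, in Ctrl+I/R versus Ctrl from 1778 and 1241 to 2365 and 765, and in the interaction from 2305 and 2648 to 1586 and 3010. Of the mitochondrial mRNAs, PT-KO+I/R versus PT-KO called 2 with library totals, 4 with no filter, 0 in the fit to all 12 libraries and 3 with the chromosome 1 copies added (1 to 3 leaving out a library); PT-KO versus Ctrl called 4 with DESeq2, 3 with no filter and 0 to 11 leaving out a library; PT-KO+I/R versus Ctrl+I/R called 8 with DESeq2, 2 with library totals and 2 to 6 leaving out a library, and also 6 with no filter and 6 in the fit to all 12; the interaction called 1 with sex as a covariate. Of the machinery genes, Ctrl+I/R versus Ctrl called 0 with library totals, no filter, sex as a covariate or any library left out, and 4 in the fit to all 12 (Twnk, Tfb2m and Tufm lower, Mgme1 higher); PT-KO versus Ctrl called 0 to 2 and PT-KO+I/R versus Ctrl+I/R 5 to 9 leaving out a library; the interaction called 3 with sex as a covariate. Over all genes, Ctrl+I/R versus Ctrl called 3019 in the main fit. The fit to all 12 called 4939, and leaving out a library 379 to 4061. PT-KO versus Ctrl called 0 in the main fit, 458 with DESeq2, 388 with no filter and 0 to 1930 leaving out a library. PT-KO+I/R versus Ctrl+I/R called 8275 in the fit to all 12 and 4918 to 7509 leaving out a library. For PT-KO+I/R versus PT-KO these were 10049 and 9109 to 10262. In each fit with sex as a covariate the Ctrl level rests on Ctrl library 3 alone, since the other Ctrl libraries were the female ones. The numbers did not pair the libraries, and Ctrl library 3 shared no block. With the replicate block, PT-KO versus Ctrl called 3 mRNAs and 1 machinery gene (1378 of all genes, 0 without the block), PT-KO+I/R versus Ctrl+I/R called 2 and 3 (1683 of all genes, 7174 without), and Ctrl+I/R versus Ctrl called 0 machinery genes. TMM on nuclear genes only changed no count by over 1.5 times. Directions turned for mt-Co1 in PT-KO versus Ctrl (-0.013 with library totals, -0.011 with sex) and in PT-KO+I/R versus PT-KO (0.040 with library totals, 0.0052 in the fit to all 12, 0.033 with the block, -0.087 to 0.062 leaving out a library), for mt-Nd6 in Ctrl+I/R versus Ctrl (-0.12 with sex, -0.15 to 0.13 leaving out a library), in PT-KO+I/R versus Ctrl+I/R (-0.15 to 2.11), versus PT-KO (-0.75 to 1.51) and in the interaction (-0.76 to 1.5), and for mt-Atp8 in Ctrl+I/R versus Ctrl (-0.077 to 0.67) and in the interaction (0.12 with sex, -0.50 to 0.23). The shares of counts stayed within 1 SD. Of the alternatives for the genes given in full, 486 kept direction and call, 34 lost the call, 15 gained it and 17 turned. The cause was not tested.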

Other observations

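Only values are added here. The leukocyte markers, 9 genes in all, summed to 33.8 to 35.9 CPM in Ctrl, 28.5 to 36.2 CPM in PT-KO, 100.4 to 189.8 CPM in Ctrl+I/R and 70.7 to 98.3 CPM in PT-KO+I/R. Their members moved in both directions: of 7 tested, 4 were called higher and 3 lower (Adgre1, Ptprc and Lyz2) in PT-KO+I/R versus PT-KO, and relative to Ctrl+I/R 3 were higher and 3 lower. The endothelial markers, 5 genes, summed to 366 to 374 CPM in PT-KO+I/R and to 276 to 321 CPM in the other groups. Relative to PT-KO, 3 of these were called higher and 1 lower after I/R. For scale, the test against PT-KO called 65.5% of all tested genes, and the test against Ctrl+I/R called 46.9%. Of the 22 mitochondrial tRNA genes, those of the minus strand summed to 1402 counts in PT-KO+I/R library 2 and to 6 to 100 counts in the others, while those of the plus strand summed to 640 to 708 counts in the PT-KO+I/R libraries and to 153 to 502 in the others.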
